A study of Mus musculus with 11 samples.

Results

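Transcripts of 54 genes of the Wnt pathway were followed in epithelial cells of the fetal mouse lung with and without the transcription regulators PRDM16 and PRDM3 (encoded by Prdm16 and Mecom). The 54 were chosen by symbol and by role: 14 Wnt ligands, 2 genes of ligand secretion, 15 receptors, 7 secreted inhibitors, 6 genes of β-catenin and its partners, 5 feedback targets, and 5 R-spondin receptors and ubiquitin ligases. Earlier results of these data were known when the 54 were chosen. All 54 had a row among the 24421 rows of the count table, and 48 had enough counts to be tested. The knockout animals carried floxed Prdm16 and floxed Prdm3 alleles recombined by a Cre expressed from Shh, a gene active in the lung epithelium. Per the labels, they came from Prdm3 fl/fl Prdm16 fl/wt ShhCre+ males and Prdm3 fl/fl Prdm16 fl/fl females. The other group is labelled only Control, with no alleles given, and the design text speaks of wild type. Lungs of both groups were taken at E17.5, late in gestation, and dissociated with enzymes, cells with the epithelial surface protein EpCAM were held on magnetic beads, and poly(A) RNA was sequenced, giving 6 Control and 5 knockout libraries.

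Wnt proteins are secreted signals that need a lipid to be active: the enzyme PORCN adds it, and the carrier WLS brings the protein to the cell surface. In the canonical branch a Wnt binds a Frizzled receptor with the co-receptor LRP5 or LRP6, which stops the destruction of β-catenin. β-catenin then enters the nucleus and acts with TCF/LEF factors on target genes, several of which encode brakes on the same pathway. In the lung, Wnt2 and Wnt2b are known as mesenchymal ligands and Wnt7b as an epithelial ligand, and canonical signalling is known for its part in lung specification, branching and the alveolar progenitors.

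Libraries held 6065906 to 7869787 counts. The labels do not say whether each library came from a separate animal, and p-values therefore rest on library-to-library spread, some of it possibly technical. The deposited counts cover whole genes and not the floxed exons, so the targeted genes are a weak check of the labels. Prdm16 was at 202 ± 21.9 CPM (each library's counts brought to the same total, mean ± SD over 6 libraries) in Control and 166 ± 12.2 CPM over the 5 knockout libraries, and Mecom was at 219 ± 9.99 and 340 ± 16.0 CPM. Epithelial markers were high throughout: 10 genes summed to 7731 to 9057 CPM in Control and 8299 to 9244 CPM in the knockout. Markers of other cells were present too. The mesenchymal list of 19 genes summed to 1296 to 1939 CPM in Control and 1365 to 2465 CPM in the knockout. Of its 18 tested genes, 8 were called higher and 1 lower, beside 21.1% higher and 21.8% lower over all genes tested. The lower one, Col6a1, was the most abundant of the list in Control, at 556 ± 213 CPM, and was at 203 ± 70.5 CPM in the knockout. The overlap of the sums therefore hides rises of less abundant genes. The mesothelial list of 8 genes summed to 461 to 709 and 769 to 939 CPM, without overlap, and 7 genes were called higher. A large part of the sum was Krt7, which was not called, at 331 ± 41.8 and 341 ± 23.5 CPM. Endothelial markers were low, at 72.6 to 112 and 62.2 to 86.2 CPM, with 5 of 9 tested genes higher and 1 lower. The lower one, Kdr, was the most abundant of the list, at 58.1 ± 16.0 and 24.7 ± 2.10 CPM. The haematopoietic list summed to 157 to 776 and 359 to 733 CPM, with 3 of 6 tested genes higher and the haemoglobin genes at 0 in every library. Proliferation genes summed to 233 to 940 CPM in Control, where libraries 5 and 6 were highest, and to 342 to 469 CPM in the knockout. A high level of Y-linked transcripts was seen in 4 Control libraries and 1 knockout library.

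Called, above and below, means an adjusted p under 0.05 in edgeR's quasi-likelihood test. Of all 13916 genes tested, 42.9% were called, 21.1% higher and 21.8% lower in the knockout. Of the 48 tested Wnt members, 15 were called higher, 22 lower and 11 were not called, which is 77.1%. Some members passed the filter on low counts through a single group: Wnt3, Wnt10a, Fzd9, Fzd10 and Nkd2 through the knockout, and Notum and Lgr5 through Control. Of the 41 members that reached the filter in both groups, 10 were called higher, 20 lower and 11 were not called, or 73.2%. The median log2 fold change (knockout over Control) was -0.24 over these 41 members, -0.12 over all 48 tested and 0.0023 over all genes. A change of at least 2-fold was called for 12 of the 41, 3 higher and 9 lower, where 11.4% of all genes had such a call, 6.92% higher and 4.50% lower. The members that passed through a single group bring these to 17, 6 higher and 11 lower. CPM ranges of the groups did not overlap for 22 of the 41, or 53.7%, against 28.5% of all genes. The shares of all genes include those that passed the filter through a single group, and shares without them are not given here.

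**Figure D1:**
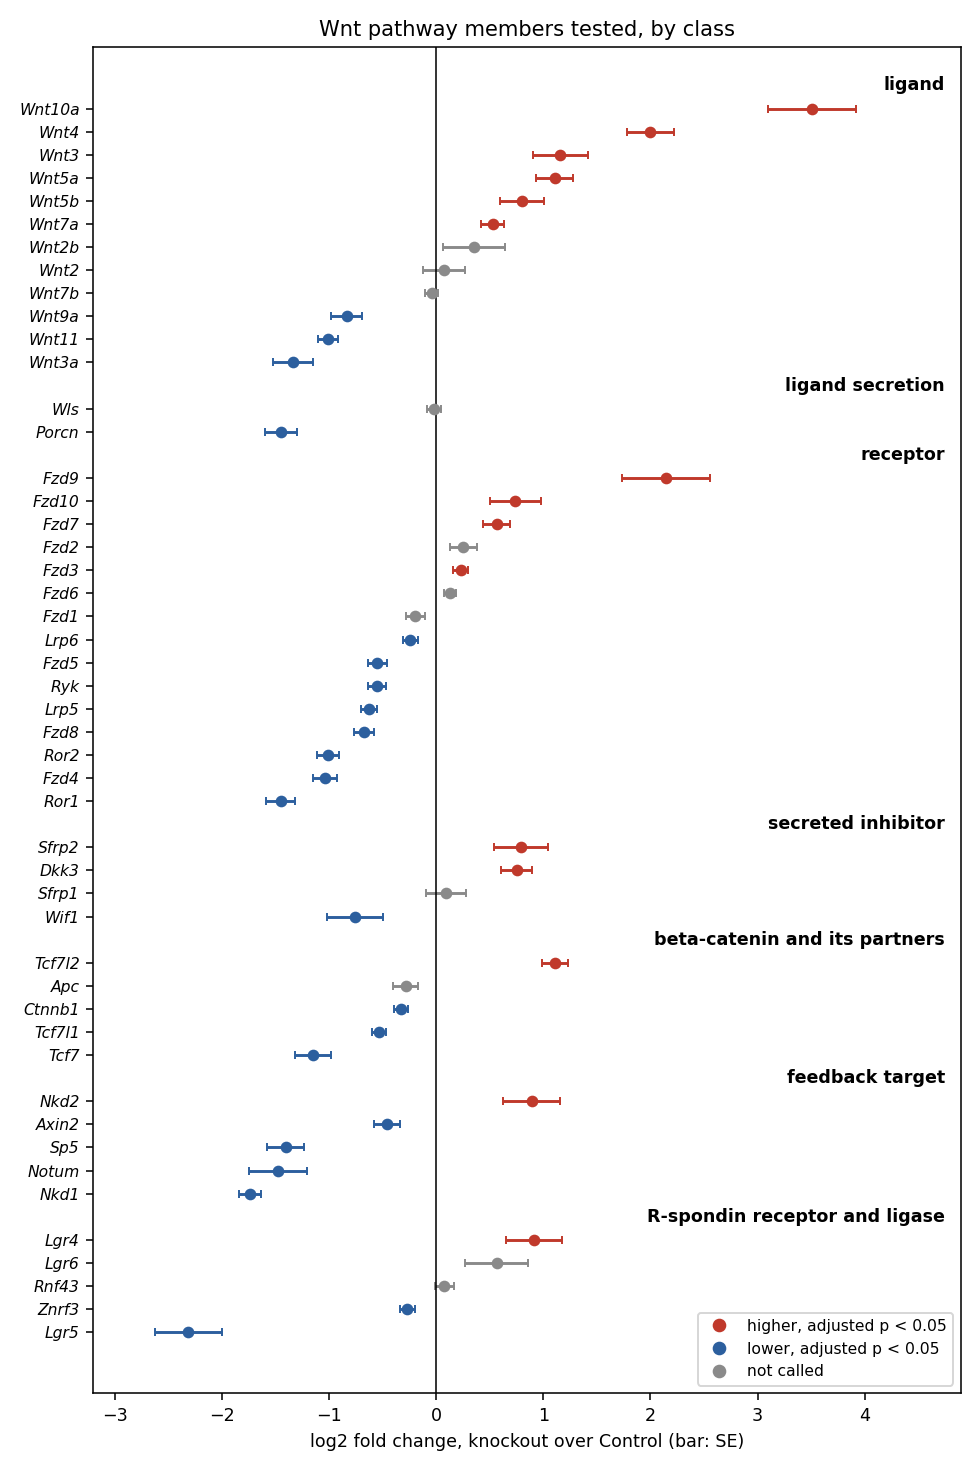
Log2 fold change of the 48 tested members, knockout over Control, grouped by role. Each point is the edgeR estimate and each bar its standard error, with red for members called higher, blue for members called lower and grey for the 11 not called. Feedback targets lay left of 0 except Nkd2, whereas ligands spread from -1.34 (Wnt3a) to 3.51 (Wnt10a).

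The ligands changed in both directions. Of 12 tested, 6 were called higher, 3 lower and 3 were not called, and without Wnt3 and Wnt10a, which passed the filter only through the knockout, 4 of 10 were higher. Transcripts of Wnt4, Wnt5a and Wnt7a were more abundant in the knockout, those of Wnt3a, Wnt9a and Wnt11 were less abundant, and those of Wnt7b, the leading ligand of these cells, did not pass the test. Since these are bulk samples, fewer cells of a type and less RNA per cell cannot be told apart.

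Wnt4, a ligand known from kidney and Müllerian duct development, lies on the plus strand at chr4:137277489-137299726 (mm10). It ranged from 13.1 to 43.5 CPM in Control with a median of 21.3, and stood at 95.7, 115, 93.4, 89.5 and 85.7 CPM in knockout libraries 1 to 5. Every knockout library lay well above the highest Control library. The log2 fold change was 2.00 (SE 0.22, edgeR adjusted p = 6.98e-06). Wnt5a, which mostly acts through the non-canonical receptors of the ROR family, had a Control median of 11.1 CPM (10.1 to 19.4) and 29.6, 26.0, 30.1, 22 and 33.4 CPM in the knockout. The groups stayed apart, although the upper Control and lower knockout libraries were close. Its log2 fold change was 1.11 (SE 0.17, edgeR adjusted p = 1.21e-04). The related Wnt5b reached only 5.04, 4.73, 7.56, 5.66 and 7.77 CPM in the knockout against 2.56 to 5.37 CPM (median 3.2) in Control. These ranges overlapped, and its change of 0.80 (SE 0.21, edgeR adjusted p = 0.00537) was not called once the mesenchymal marker level was a covariate (0.56, adjusted p = 0.174). Wnt7a, the close relative of Wnt7b, had 33.6 to 50.1 CPM in Control (median 43.2) and 63.3, 73.6, 55.6, 70.2 and 52.3 CPM in the knockout. The lowest knockout library lay just above the highest Control library, and the fold change was small (0.53, SE 0.11, edgeR adjusted p = 0.00117). Wnt7a was not called in the 2 Control and 4 knockout libraries with low Y-linked transcripts, called the low-Y libraries below (0.40, adjusted p = 0.0733).

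A pair of further ligands rose from very low levels. Wnt10a had 8 counts in Control in total and 95 in the knockout, a mean of 0.206 ± 0.122 and 2.45 ± 0.735 CPM. No Control library came near the knockout values, and the log2 fold change was 3.51 (SE 0.41, edgeR adjusted p = 4.40e-06). Wnt3 averaged 1.40 ± 0.451 CPM in Control and 3.22 ± 0.71 CPM in the knockout (1.16, SE 0.25, edgeR adjusted p = 0.00160).

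The ligands that fell include Wnt3a, widely used as the model canonical ligand. It had a Control median of 23.0 CPM (13.1 to 25.4) and 7.03, 10.8, 7.94, 7.85 and 7.40 CPM in the knockout. All knockout libraries were below all Control libraries, for a difference of -1.34 on the log2 scale (SE 0.19, edgeR adjusted p = 3.47e-05). Wnt9a is its neighbour on chromosome 11, transcribed in the opposite direction from a start 16176 bp away. It fell from a Control median of 14.5 CPM (11.8 to 19.7) to 6.50, 8.54, 9.99, 9.65 and 7.03 CPM, again without overlap (-0.84, SE 0.15, edgeR adjusted p = 2.88e-04). Wnt11, best known for non-canonical signalling, had 37.7 to 49.3 CPM in Control (median 42.0) and 22.7, 18.5, 24.8, 19.8 and 19.4 CPM in the knockout. The groups were wide apart, and the log2 fold change was -1.01 (SE 0.092, edgeR adjusted p = 4.06e-07). An opposite-strand transcript covers 8.8% of the exon bases of Wnt11, and whether the counting used strand is not given in the sources used here.

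Wnt7b was the most abundant ligand per kilobase of exon, at 36.7 ± 3.20 CPM per kilobase in Control. Its counts were 180 ± 15.7 CPM in Control and 175 ± 4.69 CPM in the knockout, a difference within the spread of the libraries (-0.04, SE 0.064, edgeR adjusted p = 0.633). Wnt2, at 8.84 ± 2.61 and 9.35 ± 2.12 CPM, was not called either (0.07, SE 0.20, edgeR adjusted p = 0.796), nor was Wnt2b. Wnt6 and Wnt10b were not tested.

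The make-up of the ligand transcripts differed between the groups. As a share of the summed CPM per kilobase of the 14 ligands, Wnt4 went from 6.67% ± 3.18 to 22.2% ± 1.55. Wnt11 went from 11.8% ± 0.792 to 4.95% ± 0.641, and Wnt3a from 8.71% ± 2.25 to 2.87% ± 0.387. Wnt7b held the largest share in both groups, 42.2% ± 1.24 and 34.8% ± 1.33. The sum itself was 82.2 to 94.6 CPM per kilobase in Control and 95.8 to 111 in the knockout, so the ranges did not overlap. These are summed transcript levels over ligands with different receptors, and no test was made on the shares or sums.

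**Figure D2:**
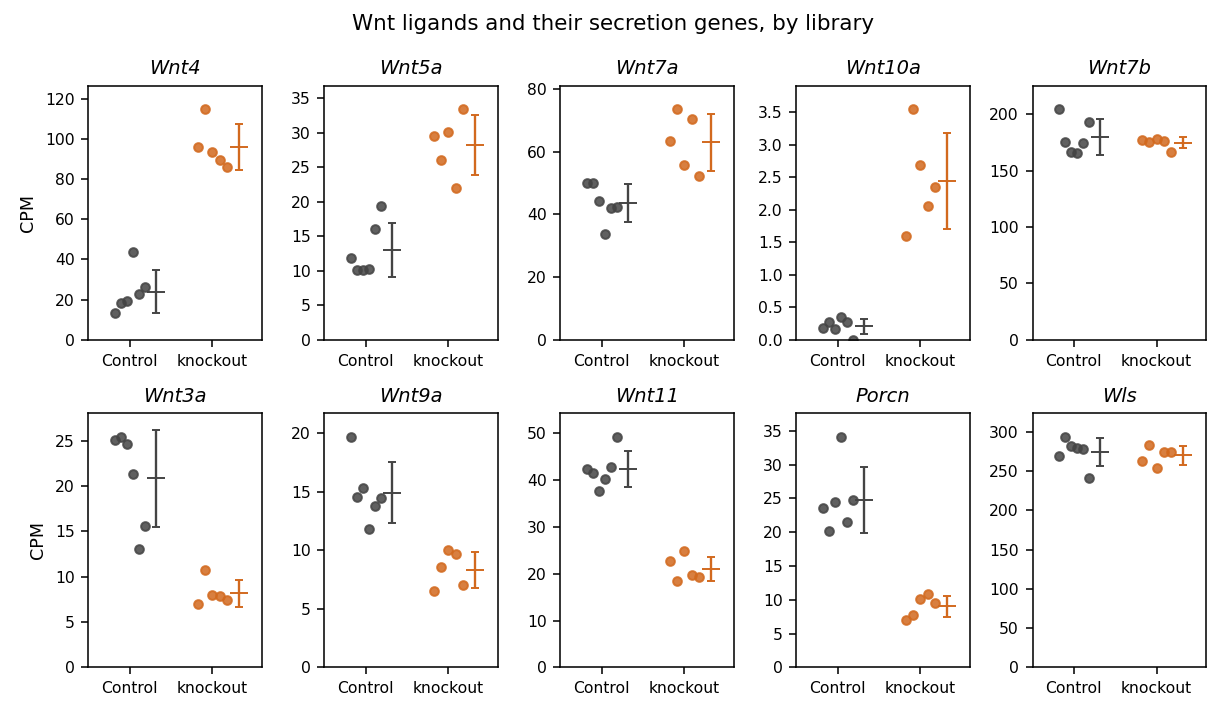
CPM of 8 ligands and the secretion genes Porcn and Wls in each library (points, Control in dark grey and knockout in orange), with the mean and SD beside them. Wnt4 and Wnt10a lay higher and Wnt3a, Wnt9a, Wnt11 and Porcn lower in every knockout library than in any Control library, while Wnt7b and Wls overlapped.

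The secretion genes differed from each other. Porcn, on the X chromosome, encodes the enzyme that puts the lipid on every Wnt. Its transcripts had a Control median of 24.0 CPM (20.2 to 34.2) and 7.03, 7.75, 10.1, 10.8 and 9.50 CPM in the knockout. Every knockout library was far below every Control library, and the log2 fold change was -1.45 (SE 0.15, edgeR adjusted p = 1.41e-06). Wls, the carrier, was at 274 ± 17.9 and 270 ± 11.7 CPM (-0.02, SE 0.062, edgeR adjusted p = 0.815), so no difference beyond the spread was seen.

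Among 15 receptors, all tested, 4 were called higher, 8 lower and 3 were not called, and of the 13 that reached the filter in both groups 2 were higher and 8 lower. The alternative Wnt receptors Ror1, Ror2 and Ryk all fell, and the Frizzled genes split. Ror1, a receptor tyrosine kinase-like protein that binds WNT5A, had 23.1 to 42.2 CPM in Control (median 36.4) and 10.7, 14.3, 14.2, 13.1 and 12.6 CPM in the knockout. Its groups did not overlap, and its value (-1.45, SE 0.14, edgeR adjusted p = 5.70e-07) was the lowest among the receptors. The paralogue Ror2 had a Control median of 68.3 CPM (54.4 to 84.6) and 30.4, 35.9, 31.9, 36.3 and 36.5 CPM in the knockout. It too was lower in every knockout library (-1.01, SE 0.10, edgeR adjusted p = 1.24e-06). Ryk, a Wnt receptor with an inactive kinase domain, went from 67.4 to 91.7 CPM (median 71.3) to 48.0, 52.3, 51.0, 54.2 and 53.5 CPM. That difference was smaller but also without overlap (-0.55, SE 0.084, edgeR adjusted p = 7.34e-05). Thus Wnt5a transcripts were higher and those of its ROR receptors lower in the same libraries.

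The co-receptors of the canonical branch were lower. Lrp5 had 167 to 208 CPM in Control (median 187) and 126, 109, 120, 134 and 113 CPM in the knockout. The ranges were apart, and the log2 fold change was -0.63 (SE 0.074, edgeR adjusted p = 6.31e-06). Lrp6 had a Control median of 248 CPM (216 to 285) and 221, 199, 213, 201 and 227 CPM in the knockout, which overlapped. Its change was small (-0.24, SE 0.072, edgeR adjusted p = 0.0131) and was not called with the mesenchymal covariate (-0.24, adjusted p = 0.121), in the low-Y libraries (adjusted p = 0.347) or without TMM scaling.

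The Frizzled genes encode the primary Wnt receptors. Those that fell were Fzd4, Fzd5 and Fzd8. Fzd4, which also binds Norrin, had 21.0 to 34.2 CPM in Control (median 29.3) and a tight 13.0, 13.8, 14.7, 14.4 and 15.1 CPM in the knockout. Its groups were clearly separate (-1.04, SE 0.11, edgeR adjusted p = 2.06e-06). Fzd5 had a Control median of 244 CPM (185 to 265) and 177, 161, 153, 174 and 148 CPM in the knockout. The ranges only just missed each other (-0.55, SE 0.087, edgeR adjusted p = 1.15e-04), and 17.8% of its exon bases are shared with another annotated transcript. Fzd8, its closest relative, had 58.6 to 76.7 CPM in Control (median 67.7) and 38.2, 40.1, 46.9, 49.1 and 39.5 CPM in the knockout. Every knockout library was lower (-0.67, SE 0.092, edgeR adjusted p = 2.59e-05).

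Of the Frizzled genes that rose, Fzd7 was the most abundant per kilobase. It had 166 to 318 CPM in Control (median 249) and 328, 373, 334, 412 and 370 CPM in the knockout. The highest Control library came close to the lowest knockout library, and the log2 fold change (0.57, SE 0.13, edgeR adjusted p = 0.00214) was 0.48 with the mesenchymal covariate, where it was not called (adjusted p = 0.0531), and 0.36 in the low-Y libraries (not called, adjusted p = 0.0780). Fzd3, a receptor used in planar polarity, had a Control median of 49.5 CPM (44.9 to 54.4) and 65.0, 56.0, 58.1, 53.5 and 58.0 CPM in the knockout. The groups overlapped, and the change was 0.23 (SE 0.070, edgeR adjusted p = 0.0154). Fzd3 was not called without knockout library 1, with the mesenchymal covariate (adjusted p = 0.120) or in the low-Y libraries (adjusted p = 0.0814). Fzd9 and Fzd10 were rare: Fzd9 went from 0.464 ± 0.406 to 2.24 ± 0.637 CPM (2.15, SE 0.41, edgeR adjusted p = 5.00e-04) and Fzd10 from 1.52 ± 0.510 to 2.55 ± 0.359 CPM (0.74, SE 0.24, adjusted p = 0.0186). Fzd9 was not called in the low-Y libraries alone (1.71, adjusted p = 0.0590), and Fzd10 was not called with the replicate block or the mesenchymal covariate (adjusted p = 0.229).

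The leading Frizzled genes per kilobase were Fzd1 and Fzd2, which did not pass the test. Fzd1 was at 549 ± 59.4 and 480 ± 42.9 CPM (-0.19, SE 0.086, edgeR adjusted p = 0.0860), and Fzd2 at 340 ± 71.0 and 405 ± 44.5 CPM (0.25, SE 0.13, edgeR adjusted p = 0.121). Fzd6 was not called. Of the summed CPM per kilobase of the 10 Frizzled genes, Fzd7 held 15.2% ± 1.96 in Control and 21.9% ± 1.04 in the knockout, and Fzd5 held 9.77% ± 0.723 and 6.44% ± 0.473. The sum overlapped between groups, at 298 to 397 and 348 to 410 CPM per kilobase.

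**Figure D3:**
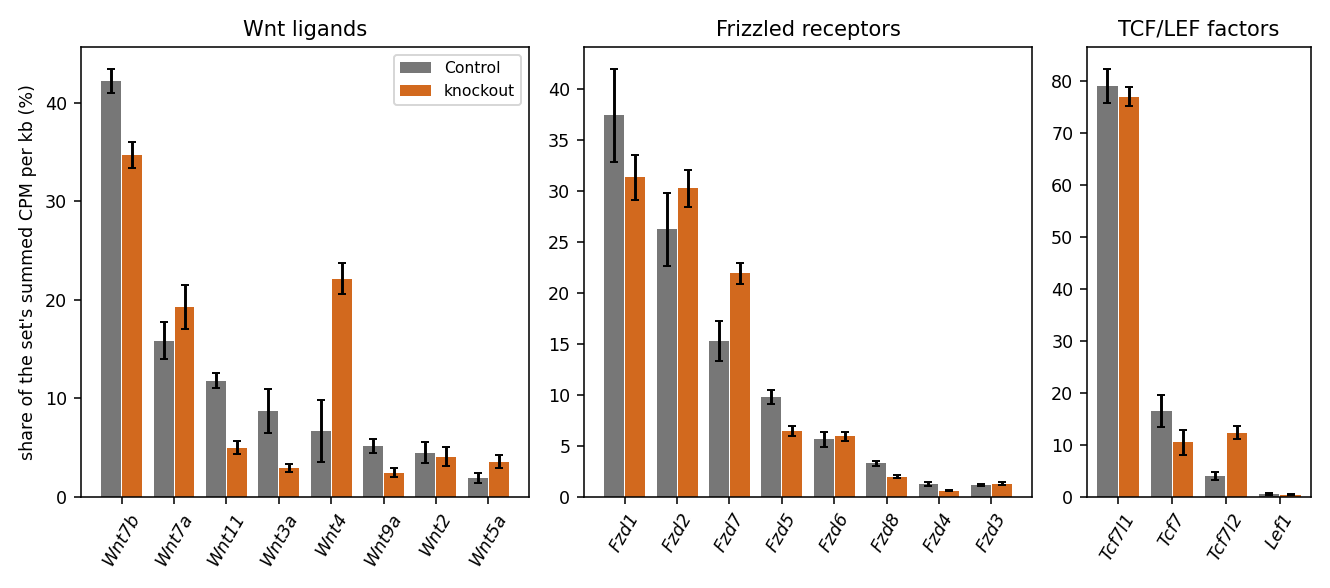
Share of each gene in the summed CPM per kilobase of its set, for 8 of the 14 ligands, 8 of the 10 Frizzled genes and the 4 TCF/LEF factors (bars, mean; whiskers, SD over 6 Control or 5 knockout libraries; y axes differ). Wnt4 stood at 6.67% in Control and 22.2% in the knockout, and Tcf7l2 at 4.02% and 12.3%.

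Secreted inhibitors bind Wnts (SFRP and WIF1) or the LRP co-receptors (DKK1 and DKK2) outside the cell. Few were expressed: 4 of 7 were tested, of which 2 were called higher, 1 lower and 1 was not called, and Dkk1, Dkk2 and Sfrp5 were not tested. Dkk3, a divergent member of its family, had 21.4 to 31.7 CPM in Control (median 27.2) and 49.6, 35.7, 61.9, 33.8 and 45.5 CPM in the knockout. The groups did not overlap, but knockout libraries differed widely among themselves (0.75, SE 0.15, edgeR adjusted p = 7.95e-04). Sfrp2 had a Control median of 7.11 CPM (5.37 to 10.8) and 17.0, 14.7, 18.4, 10.9 and 6.54 CPM in the knockout. Knockout library 5 lay inside the Control range, and 16.1% of the exon bases are shared with another transcript (0.79, SE 0.26, edgeR adjusted p = 0.0224). Wif1 went from 3.69 ± 1.18 to 2.16 ± 0.736 CPM (-0.76, SE 0.26, edgeR adjusted p = 0.0273), and Sfrp1 was at 16.7 ± 1.37 and 17.9 ± 6.09 CPM (0.10, SE 0.19, edgeR adjusted p = 0.712).

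No inhibitor call held with the mesenchymal marker level as a covariate. Dkk3 was then at 0.26 (edgeR adjusted p = 0.0814), Sfrp2 at 0.61 (adjusted p = 0.251) and Wif1 at -0.52 (adjusted p = 0.312). Knockout library 3, which had the highest mesenchymal sum, 2465 CPM, also had the highest Dkk3, Sfrp2 and Sfrp1 values. Sfrp2 was not called without knockout library 1 or 3 or in the low-Y libraries (edgeR adjusted p = 0.420), and Wif1 was not called without Control library 4 or without knockout library 1, 2, 3 or 5.

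Ctnnb1 encodes β-catenin, the relay of the canonical branch, and was the most abundant member per kilobase. It had 1480 to 1712 CPM in Control (median 1607) and 1284, 1258, 1251, 1306 and 1260 CPM in the knockout. The change was modest but the groups were apart (-0.33, SE 0.063, edgeR adjusted p = 6.39e-04). The opposite-strand gene Ulk4 covers 14.6% of its exon bases and was at only 5.80 ± 1.27 and 5.55 ± 0.982 CPM. Apc, a scaffold of the complex that destroys β-catenin, was at 466 ± 83.7 and 383 ± 24.0 CPM and was not called (-0.28, SE 0.12, edgeR adjusted p = 0.0630).

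The TCF/LEF factors, which carry β-catenin to DNA, moved in opposite directions. Tcf7l1, a factor that mostly represses, was the leading member per kilobase, with 99.3 to 117 CPM in Control (median 108) and 75.2, 71.6, 79.3, 76.5 and 70.4 CPM in the knockout. All knockout libraries were lower (-0.54, SE 0.065, edgeR adjusted p = 8.32e-06). Tcf7, a factor that is also a Wnt target, had a Control median of 14.3 CPM (12.0 to 19.4) and 6.76, 5.52, 8.96, 4.63 and 8.02 CPM in the knockout. It fell without overlap (-1.15, SE 0.17, edgeR adjusted p = 5.18e-05). Tcf7l2, the factor best known from the intestine, had 9.23 to 16.8 CPM in Control (median 11.9) and 28.5, 28.1, 23.7, 27.1 and 25.4 CPM in the knockout. It rose in every knockout library (1.11, SE 0.12, edgeR adjusted p = 3.50e-06). Together with Lef1, which was not tested, the 4 factors summed to 32.2 to 36.3 CPM per kilobase in Control and 23.6 to 26.4 in the knockout. Tcf7l2 made up 4.02% ± 0.790 of that sum in Control and 12.3% ± 1.28 in the knockout, and Tcf7 16.5% ± 3.07 and 10.4% ± 2.46.

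Feedback targets are genes that canonical signalling switches on and whose products restrain it. Of 5 tested, 4 were called lower and 1 higher. Notum passed the filter only through Control and Nkd2 only through the knockout, and the other 3, Axin2, Nkd1 and Sp5, were called lower. Promoters are described first because a TCF/LEF site is the usual route by which β-catenin reaches such genes. RefSeq windows on GRCm38.p6, the mm10 assembly, run from 250 bases before to 50 bases after the start. They were searched on both strands for 4 forms of the TCF/LEF core: ATCAAAG, then TTCAAAG, then AACAAAG, and last TACAAAG. No other motif was searched. A match stood in 16.9% of all 32851 windows and in a window of 18.9% of genes. Of 38 members with a window, 8 held a match, or 21.1%, and of 7 members of the target subset described below, 2 did, Sp5 and Lef1. Matches stood in Sp5 and Wnt11, called lower, in Fzd7, Wnt3, Wnt5b and Tcf7l2, called higher, and in Dkk1 and Lef1, not tested. Wnt11, Wnt5b, Tcf7l2 and Lef1 each had several windows, of which only 1 held a match. For Wnt5b, Tcf7l2 and Lef1 that window belonged to a start inside the gene, and the window nearest the annotated gene start held none. The only window of Nkd1, chr8:88527383-88527682, held none. It lies inside the gene, and the annotated gene start at chr8:88521354 was not searched. The 250 bases before the start are given for Sp5 (chr2:70474673-70474922, plus strand), which held 2 matches, at 222 and 104 bases before the start. The same stretch is given for Axin2 (chr11:108920099-108920348, plus strand), which held none, and for the falling ligand Wnt11 (chr7:98834862-98835111, plus strand), which held 1, at 51 bases before the start. Capitals mark the matches, on either strand.
Sp5: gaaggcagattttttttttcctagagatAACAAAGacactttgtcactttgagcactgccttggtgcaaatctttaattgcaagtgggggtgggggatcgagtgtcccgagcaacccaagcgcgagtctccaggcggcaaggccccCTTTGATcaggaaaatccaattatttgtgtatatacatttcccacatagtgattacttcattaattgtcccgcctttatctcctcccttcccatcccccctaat
Axin2: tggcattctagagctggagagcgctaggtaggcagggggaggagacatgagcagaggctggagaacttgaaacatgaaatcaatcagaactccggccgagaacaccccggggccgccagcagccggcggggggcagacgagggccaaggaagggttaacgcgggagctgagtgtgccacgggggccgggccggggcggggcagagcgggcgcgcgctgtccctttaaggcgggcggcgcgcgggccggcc
Wnt11: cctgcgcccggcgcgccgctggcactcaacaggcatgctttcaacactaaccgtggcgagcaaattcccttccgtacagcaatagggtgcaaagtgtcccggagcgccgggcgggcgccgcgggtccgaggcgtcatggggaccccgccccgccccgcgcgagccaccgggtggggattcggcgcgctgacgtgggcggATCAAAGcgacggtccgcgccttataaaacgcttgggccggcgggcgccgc
A match is a string of letters and not a measured site. Windows with at least 2 matches made up 1.94% of all windows.

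Nkd1, which binds Dishevelled and dampens the signal, lies on the plus strand at chr8:88521354-88594884. It had 258 to 369 CPM in Control (median 341) and 93.9, 90.0, 103, 102 and 96.5 CPM in the knockout. The knockout libraries were nearly alike and all far below Control (-1.74, SE 0.10, edgeR adjusted p = 4.00e-09), the smallest p among the members. Sp5, a transcription factor of the SP family and a direct target in many cell types, had a Control median of 33.4 CPM (26.2 to 51.6) and 11.8, 16.8, 12.9, 10.5 and 15.4 CPM in the knockout. No libraries overlapped (-1.40, SE 0.17, edgeR adjusted p = 1.24e-05). Notum, an enzyme that strips the lipid from Wnts, was low, with 3.60 to 7.28 CPM in Control (median 5.58) and 2.25, 1.58, 2.95, 1.93 and 0.864 CPM in the knockout. It fell without overlap (-1.47, SE 0.27, edgeR adjusted p = 3.72e-04), and opposite-strand transcripts cover 38.1% of its exon bases.

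Axin2, a scaffold of the destruction complex and the most widely used readout of canonical signalling, changed less. It had a Control median of 34.5 CPM (26.7 to 43.1) and 20.4, 23.0, 30.6, 25.1 and 25.0 CPM in the knockout. Only knockout library 3 reached into the Control range (-0.46, SE 0.12, edgeR adjusted p = 0.00794). It was not called without TMM scaling, in the low-Y libraries alone (-0.55, adjusted p = 0.0618) or in the high-Y libraries alone (-0.41, adjusted p = 0.280), which hold 1 knockout library. With the mesenchymal covariate it was called, at -0.73 (adjusted p = 0.00119). The covariate also gave lower values for Sp5 (-1.66), Notum (-1.99) and Tcf7 (-1.57). It gave slightly higher values for Nkd1 (-1.68), Lgr5 (-2.14) and Znrf3 (-0.24, not called). Nkd2, the rare relative of Nkd1, was at 1.00 ± 0.366 and 1.94 ± 0.281 CPM (0.89, SE 0.26, edgeR adjusted p = 0.0117) and was not called with the covariate (adjusted p = 0.137) or in the low-Y libraries (adjusted p = 0.322).

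**Figure D4:**
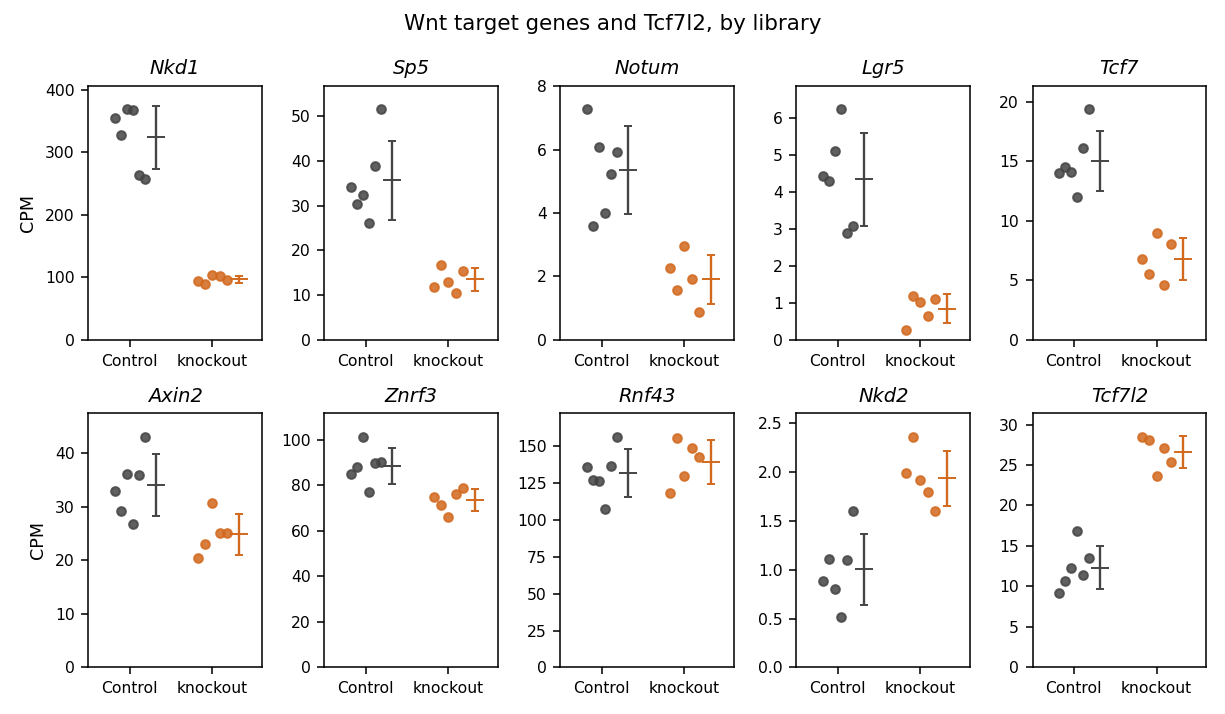
CPM of 9 target genes and Tcf7l2 in each library (points, Control in dark grey and knockout in orange), with the mean and SD beside them. Nkd1, Sp5, Notum, Lgr5 and Tcf7 lay lower in every knockout library than in any Control library, Axin2 and Znrf3 overlapped, and Rnf43 was alike in both groups.

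R-spondins, acting through LGR4, LGR5 or LGR6, keep the ubiquitin ligases RNF43 and ZNRF3 from removing Frizzled receptors. Of these 5 genes, 1 was called higher, 2 lower and 2 were not called, and of the lower ones Lgr5 passed the filter only through Control. Lgr5, a stem cell marker and Wnt target in the gut, was rare in these cells, with 170 counts in Control and 33 in the knockout in total. It was at 4.34 ± 1.26 and 0.845 ± 0.385 CPM, the lowest fold change of any member (-2.31, SE 0.31, edgeR adjusted p = 2.18e-05). Lgr4 had a Control median of 4.46 CPM (2.96 to 5.12) and 7.56, 6.17, 14.6, 4.50 and 7.40 CPM in the knockout. Knockout library 3 stood far above the rest and library 4 within the Control range (0.91, SE 0.26, edgeR adjusted p = 0.0114), and Lgr4 was not called with the mesenchymal covariate (0.42, adjusted p = 0.436) or in the low-Y libraries (1.15, adjusted p = 0.0704). Znrf3 had 77.0 to 101 CPM in Control (median 88.8) and 75.1, 71.3, 66.0, 76.3 and 78.7 CPM in the knockout. The ranges overlapped slightly and the change was small (-0.27, SE 0.072, edgeR adjusted p = 0.00725), and it was not called with the covariate (adjusted p = 0.103) or without TMM scaling. Rnf43, at 132 ± 16.1 and 139 ± 15.1 CPM, was not called (0.08, SE 0.091, edgeR adjusted p = 0.525). Lgr6 was at 3.82 ± 1.71 and 5.78 ± 1.96 CPM (0.57, SE 0.29, edgeR adjusted p = 0.135).

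Across roles, 10 members are widely read as targets of the canonical branch: Axin2, Nkd1, Nkd2, Notum, Sp5, Lef1, Tcf7, Lgr5, Rnf43 and Znrf3. Of the 9 tested, 7 were called lower, 1 higher and 1 was not called, beside 21.8% lower and 21.1% higher over all genes. Lgr5 and Notum passed the filter only through Control and Nkd2 only through the knockout, and of the other 6, 5 were called lower and Rnf43 was not called, with a median log2 fold change of -0.80. Those called lower ranged from -0.27 for Znrf3 to -2.31 for Lgr5, so the size differed widely within the subset. With the mesenchymal covariate 6 were called lower and 0 higher, and the 6 include Lgr5 and Notum.

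The fit was repeated with the mean log2 CPM of the mesenchymal list in each library as a covariate. The covariate added about 0.5 counts before the log. A closely related score, with 0.5 added to each CPM instead, ran from 4.40 to 5.08 in Control and from 4.89 to 5.61 in the knockout. Such a covariate shares part of its variation with genotype, and the 2 cannot be told apart where a call was lost. Of the 22 members called lower, 19 were still called, and of the 15 called higher, 7 were: Wnt3, Wnt4, Wnt5a, Wnt7a, Wnt10a, Fzd9 and Tcf7l2. Of these, Wnt3, Wnt10a and Fzd9 had passed the filter only through the knockout. Of the 10 rises among members that reached it in both groups, only Wnt4, Wnt5a, Wnt7a and Tcf7l2 were kept. The 19 include Notum and Lgr5, which had passed only through Control. All 37 kept their sign. Wnt5a went from 1.11 to 0.72 (adjusted p = 0.0119), whereas Wnt4 was at 2.03 and Wnt7a at 0.69. The same covariate left 1816 genes of the whole table called higher and 1845 lower, against 2936 and 3037 without it. The libraries were also fitted separately by their Y-linked transcripts. The low-Y libraries lost the calls of 9 members: Axin2, Fzd3, Fzd7, Fzd9, Lgr4, Lrp6, Nkd2, Sfrp2 and Wnt7a. The high-Y libraries hold 1 knockout library, whose spread is assumed to be that of Control, and lost 20: Wnt3, Wnt5a, Wnt5b, Wnt9a, Fzd3, Fzd5, Fzd8, Fzd9, Fzd10, Lrp5, Lrp6, Ryk, Sfrp2, Dkk3, Wif1, Ctnnb1, Axin2, Nkd2, Lgr4 and Znrf3. None of the 37 called members changed sign in either subset. The mesothelial list moved with genotype without overlap, and its part in the ligand and receptor values was not tested.

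**Figure D5:**
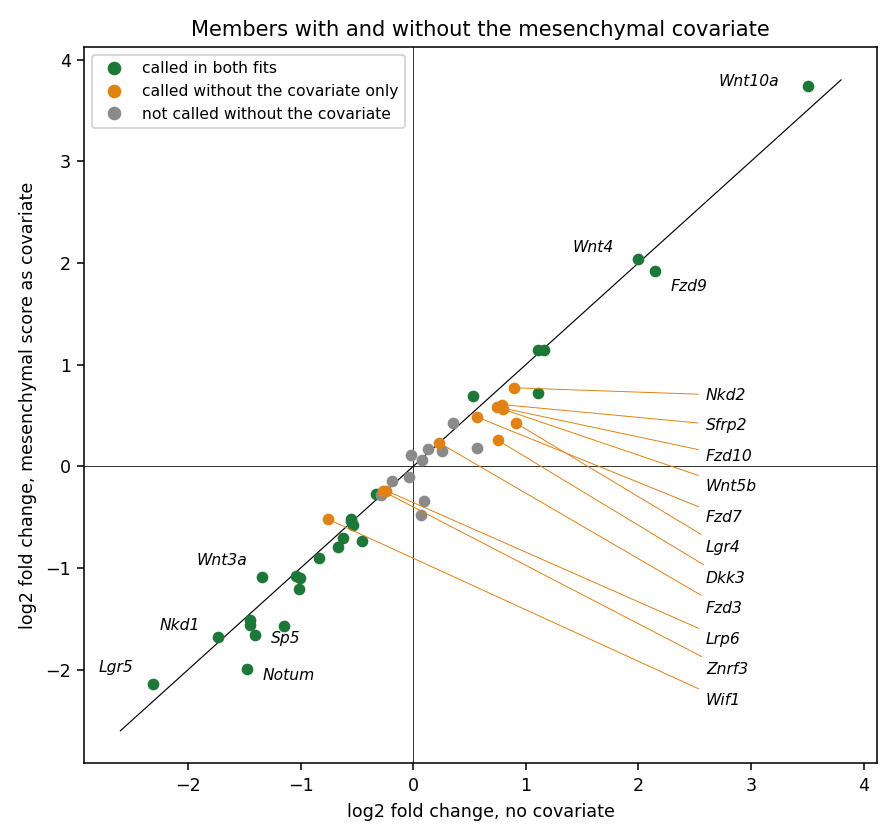
Log2 fold change of the 48 tested members without (x axis) and with (y axis) the mesenchymal marker level as a covariate, with the line of equality. Green points were called in both fits, orange points, named at right, only without the covariate, and grey points were not called without it. Dkk3 (0.75 and 0.26) and Lgr4 (0.91 and 0.42) lay well below the line, while Wnt4 and Nkd1 lay on or near it.

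The rest of the pathway was read from 71 further genes, 56 of them tested, of which 12 were called higher and 13 lower, or 44.6%. That share is near the 42.9% of all genes. The cytoplasmic relay and destruction complex had 3 higher and 1 lower of 16 tested, and the nuclear cofactors 2 higher and 3 lower of 11. The planar polarity genes had 2 higher and 4 lower of 9, the extracellular and membrane modulators 4 higher and 2 lower of 12, and the widely used targets outside the members 1 higher and 3 lower of 7. Of the remaining ligands and R-spondins, only Rspo1 had enough counts to be tested, and it was not called.

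Among these genes, the smallest adjusted p for a rise belonged to Gpc4, a cell-surface glypican, at 35.8 ± 3.92 and 81.1 ± 6.08 CPM (1.18, SE 0.081, edgeR adjusted p = 1.99e-08). Adgra2, which works with RECK as a co-receptor for WNT7A and WNT7B, was at 109 ± 6.43 and 223 ± 25.3 CPM (1.04, SE 0.075, edgeR adjusted p = 3.13e-08). Reck itself moved the other way, from 18.1 ± 1.25 to 10.7 ± 0.947 CPM (-0.76, SE 0.094, edgeR adjusted p = 9.79e-06). Celsr3, a planar polarity cadherin, rose from 1.79 ± 0.539 to 8.92 ± 1.12 CPM, and Myc, a growth regulator often counted as a Wnt target, from 103 ± 8.71 to 165 ± 15.5 CPM. Daam2, a formin that binds Dishevelled, fell from 154 ± 11.6 to 107 ± 7.09 CPM. Ptk7, a polarity receptor, fell from 174 ± 17.9 to 118 ± 8.41 CPM, and Bcl9l, a β-catenin cofactor, from 301 ± 23.6 to 217 ± 12.8 CPM. The direction of Myc was thus opposite to that of Nkd1, Sp5, Notum, Lgr5 and Tcf7. Of the 7 widely used targets outside the members, Myc was the only 1 called higher, and 3 were called lower.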

How the data were processed

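Per the labels' protocols, poly(A) RNA of EpCAM-selected lung cells was sequenced. The authors deposited raw counts per gene symbol; tools listed in the submitters' processing notes are Bowtie2 2.4.2 and HTSeq 2.0, Trim Galore 0.4.2 and FastQC, Picard 2.18.22 and SAMtools 1.10.0, and DESeq2, on the build mm10. Which annotation and strand setting were used is not given in the sources used here. Spreadsheet software had turned 27 symbols into dates; these rows stayed in the totals.

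All 11 libraries entered 1 fit, with groups from the genotype label. Low counts were removed with filterByExpr (13916 genes left), libraries were scaled by TMM, and the genotype effect came from edgeR 4.0.16 (R 4.3.3, quasi-likelihood F-test, two-sided, robust, Benjamini-Hochberg over all genes tested, threshold 0.05). A standard error is the log2 fold change over the square root of its F statistic. CPM uses TMM-scaled library sizes, and CPM per kilobase divides by the GENCODE M21 exon length. Coordinates are counted from 1.

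Values in every library were given for called members with at least 5 CPM in the higher group (for Control the lowest, median and highest), and group means for other called members and for up to 2 abundant uncalled members of each class, with the 4 smallest adjusted p in each direction among other pathway genes. Members, lists and rules were chosen with earlier results of these data known. Alternatives were other scalings and filters, DESeq2 1.42.0, limma-voom 3.58.1, a replicate block, covariates, subsets and each library left out. The steps were tested on simulated data.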

Additional observations from a re-analysis of the deposited data

Results flagged for a closer look

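In 6 of the 96 groups of libraries examined over the 48 tested members, the highest or lowest library stood apart from the others by Dixon's criterion, and chance alone marks about 1 group in 20. Wnt3 was at 0.533 CPM in Control library 1 and at 1.39 to 1.79 CPM in the other Control libraries. Wnt3a was at 10.8 CPM in knockout library 2 and at 7.03 to 7.94 CPM in the others. Wnt7b was at 167 CPM in knockout library 5 and at 176 to 178 CPM in the others. Porcn was at 34.2 CPM in Control library 4 and at 20.2 to 24.8 CPM in the others. Wif1 was at 5.89 CPM in the same library and at 2.62 to 3.83 CPM in the others, and its call was lost without it. Apc was at 426 CPM in knockout library 1 and at 369 to 375 CPM in the others.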

How the results depend on the processing

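All 37 called members kept their sign under the 28 alternatives run, and 15 of them also kept their call under each. The other 22 lost it under at least 1. Of the 11 uncalled members, 5 were called under at least 1: Apc, Fzd1, Fzd2, Fzd6 and Lgr6. Apc was called with DESeq2 and the replicate block, and Fzd1 and Fzd2 with the replicate block and the proliferation covariate. Library numbers did not pair the samples (correlations of -0.06 to 0.27 over 5 same-numbered pairs, 1 above 0.1). With the replicate block, 15 members were called higher and 24 lower, including 14 and 22 of the main calls. Scaling by library size alone moved the median of all genes to 0.11 and gave 16 and 18 members. With the mesenchymal covariate 1816 genes and 7 members were called higher and 1845 genes and 19 members lower. The 4 Control and 1 knockout libraries with high Y-linked transcripts gave 869 and 933 genes, 5 and 12 members, and 5 and 3 other pathway genes; the lone knockout library is assumed there to vary like Control. The 2 Control and 4 knockout libraries with low Y-linked transcripts gave 1932 and 1821 genes. Leaving out each library in turn gave 13 to 16 members higher and 21 to 23 lower.

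By role, the high-Y libraries gave 3 ligands higher and 3 receptors lower. Receptors higher came to 1 with the mesenchymal covariate and in the low-Y and high-Y libraries, and to 2 at a threshold of 0.01. Inhibitors higher came to 0 with the mesenchymal covariate and in the high-Y libraries, 1 at 0.01, and 1 to 2 with a library left out. Inhibitors lower came to 0 with library size only, the Y-linked covariate, the mesenchymal covariate, the high-Y libraries and 0.01, and to 0 to 1 with a library left out. Feedback targets higher, and likewise the target subset higher, came to 0 with the mesenchymal covariate, in the low-Y and high-Y libraries and at 0.01. R-spondin genes higher came to 0 under those 4 settings, to 2 with the proliferation covariate and without Control libraries 5 and 6, and to 1 to 2 with a library left out. R-spondin genes lower came to 1 with library size only, the mesenchymal covariate and the high-Y libraries. The cause of these shifts was not tested. Rare members such as Wnt10a, Fzd9 and Lgr5 rest on few counts.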

Other observations

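The 6 members left out of the test were near the limit of the counts. Without a filter on low counts, when 19503 genes were tested, Wnt6 had 11 counts in Control and 65 in the knockout in total (log2 fold change 2.55, SE 0.49, edgeR adjusted p = 2.65e-04). Sfrp5 had 11 and 44 counts (1.99, SE 0.51, edgeR adjusted p = 0.00357), and Lef1 56 and 28 (-0.91, SE 0.36, edgeR adjusted p = 0.0521). Wnt10b had 10 and 10 counts, Dkk1 3 and 5, and Dkk2 10 and 12, none of them called.

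Some Wnt genes lie side by side. Wnt6 and Wnt10a, both on the plus strand of chromosome 1 with 6193 bp between them, were both at under 1 CPM on average in Control and higher in the knockout. Wnt3a and Wnt9a on chromosome 11 start 16176 bp apart on opposite strands, and both fell, to 8.20 ± 1.49 and 8.34 ± 1.55 CPM from 20.8 ± 5.32 and 14.9 ± 2.63 CPM. Other neighbours had too few counts to compare. Wnt9b, 24328 bp from Wnt3 on chromosome 11, had 2 counts in Control and 4 in the knockout. Wnt10b and Wnt1 lie 11706 bp apart on chromosome 15. Wnt10b had 10 and 10 counts, and Wnt1 had 0 and 1. The Wnt6 and Wnt3a pairs were picked after their values were seen, and no test was made over them.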
